A study of Homo sapiens with 4 samples.

Results

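The genes examined here encode the enzymes, transporters and regulators of glycolysis, of pyruvate entry into the mitochondrion and of the pentose phosphate pathway. They were chosen by name, 36 genes in all, and 33 of them had a probe set with 1 gene symbol in the array's annotation, out of 17687 genes so named on the array. SLC16A1, SLC16A3 and PFKFB4 were not analysed here. Each of the 33 measured genes had a single probe set.

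The cells were SK-N-AS, a human line established from a neuroblastoma, and both groups grew in the same medium and serum. Treated cells received BG-P400-TAT at 30 µM for 48 h, with 2 arrays, and untreated cells received phosphate-buffered saline for the same time, with 2 arrays. By its title the study aimed the compound at both the norepinephrine transporter and the integrin αvβ3 that binds thyroid hormone, and the design asks how gene expression responds. The arrays of a group are called biological replicates in the design text, with no account of how the cultures were kept apart, so the p-values reflect array-to-array spread that may be technical. RNA came from whole cultures, so a shift in every cell and a shift in some of them cannot be told apart.

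Glycolysis converts glucose to pyruvate in the cytosol, first spending ATP to phosphorylate the sugar and then gaining ATP and NADH from the triose phosphates. Pyruvate is either reduced to lactate, which restores NAD+, or enters the mitochondrion and is oxidised by the pyruvate dehydrogenase complex, which the PDK kinases switch off. The pentose phosphate pathway branches off at glucose 6-phosphate and yields NADPH and ribose phosphate for biosynthesis. Tumour cells, neuroblastoma included, commonly make lactate even with oxygen present, and many steps are run by isoenzymes whose use differs between tissues.

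Values are log2 expression after RMA, so a difference of 1 is a 2-fold change, and differences are treated minus untreated unless said otherwise. Background was set at 6.96, which is the value that 95% of the negative-control probe sets stay below; a gene's mean over the 4 arrays was held against it, and single arrays were held against their own limit. The signal of a probe set depends on its probes as well as on the RNA, so the order of signals between genes given here is not an order of transcript amounts. The median log2 value lay between 6.49 and 6.51 on the 4 arrays, and untreated replicate 2 stood apart, with the fewest probe sets above its negative controls (8808, against 9413 to 9657 on the others). Of the adrenergic neuroblastoma markers 5 of 7 measured were above background, and of the mesenchymal markers 6 of 6, whereas TH and DBH, the catecholamine-synthesis enzymes, were above it on no array. Among 5 markers of other cell types, CD3E, PECAM1, EPCAM and ALB were below background on every array. PTPRC, the leukocyte common antigen, was above it at 12.71 and 12.57 in treated cells, against 12.75 and 12.80 in untreated cells, and the part of this signal in the results was not tested.

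No gene of these pathways passed the test. With limma across all 21448 probe sets, 0 of the 33 genes had an adjusted p under 0.05 and 0 had an unadjusted p under 0.05, where 0% and 5.08% of all probe sets did so. With all 4 arrays kept, that 0 became 1 gene (HK1) under each filter on dim probe sets. It became 2 genes (HK1 and GPI) under each other form of variance moderation. In the same settings 550 of 10724, 509 of 9960, 1001 of 21448 and 982 of 21448 probe sets had such a p. No adjusted p was under 0.05, and the counts are not read as a result about these genes. The smallest unadjusted p over the 4 arrays was 0.0661, for HK1, and the adjusted p-values of the 33 genes ran from 0.948 to 0.998. The measured values nevertheless leaned to one side: 28 genes had a positive and 5 a negative difference, the median being 0.17, while 49.1% of all probe sets were positive. Of the 9960 probe sets above background 58.6% were positive, with a median of 0.038. The 33 include PFKFB2, ENO2 and PDK3, which lay below background on every array. Without untreated replicate 2, 25 of the 33 were positive, with a median of 0.12, against 0.0068 for the probe sets above background. In 15 of the 33 genes both treated arrays lay above both untreated arrays, and in 0 both lay below. Over all probe sets 16.4% lay entirely above and 16.8% entirely below, and over those above background 20.9% and 11.5%. The genes and their list were chosen with earlier results of these data known, so these counts describe the arrays and are not a test of the pathway.

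The lean was compared array by array. The median over the 33 genes was 0.16 for treated replicate 1 minus untreated replicate 1 and 0.21 for treated replicate 1 minus untreated replicate 2. It was 0.12 for treated replicate 2 minus untreated replicate 1 and also 0.12 for treated replicate 2 minus untreated replicate 2. All 4 of these signed medians were larger than those within a group, which were -0.023 between the treated arrays and -0.053 between the untreated arrays, in each case replicate 2 minus replicate 1. The size of the differences regardless of sign did not set treated replicate 2 apart in this way. The median absolute difference over the 33 genes was 0.18 and 0.26 for treated replicate 1 against untreated replicates 1 and 2, and 0.14 and 0.15 for treated replicate 2 against the same arrays, beside 0.14 between the treated arrays and 0.14 between the untreated arrays. The 9960 probe sets above background had medians of 0.017, 0.075, 0.00080 and 0.055 in the same 4 treated minus untreated pairs, and -0.024 and -0.054 within groups. Among the 2022 probe sets with a mean above 12, where 14 of the 33 genes lie, the median difference was 0.033, and for the 14 genes it was 0.14.

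**Figure D1:**
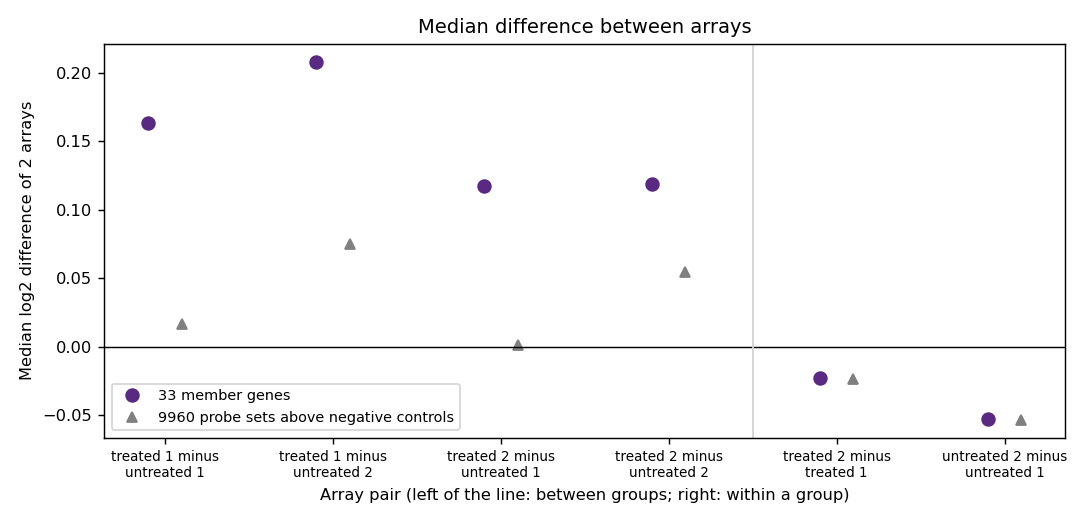
Median log2 difference between 2 arrays, for each of the 4 treated minus untreated pairs and for the pair within each group; circles are the 33 genes and triangles the 9960 probe sets above the negative controls. The circles lie between 0.12 and 0.21 in the pairs of treated and untreated arrays, against -0.023 and -0.053 within groups.

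Glucose entry is served by SLC2A1 (GLUT1), the widely expressed carrier, and SLC2A3 (GLUT3), the high-affinity carrier of neurons. SLC2A1 stood at 9.48 and 9.45 in treated cells, against 9.21 and 9.33 in untreated cells, and the groups did not overlap. The difference of SLC2A1 was 0.19 with a 95% interval of -0.24 to 0.62. SLC2A3 stood at 10.44 and 9.79 in treated cells, against 10.27 and 9.93 in untreated cells, so the untreated values lay between the treated ones, and the treated arrays differed from each other by far more than the group means did.

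The formation and interconversion of hexose phosphates gave the highest median difference of any step, 0.33 over 4 genes, and all 4 had groups that did not overlap. Both treated arrays lay above both untreated arrays in 20.9% of all probe sets above background. The 4 genes were read on the same 4 arrays, and the steps were not tested against each other. HK1, the hexokinase of most tissues and of brain, stood at 10.38 and 10.76 in treated cells, against 10.18 and 10.06 in untreated cells. HK1 averaged 10.57 ± 0.27 in treated and 10.12 ± 0.086 in untreated cells (SD, n = 2 each), a difference of 0.46 (95% interval -0.040 to 0.95, limma adjusted p = 0.948), and leaving out single arrays gave 0.27 to 0.65, lowest without treated replicate 2. HK2, the inducible hexokinase found at high levels in many tumours, stood at 8.66 and 8.52 in treated cells, against 8.45 and 8.37 in untreated cells. The highest untreated value of HK2 lay just under the lowest treated one. Its difference was 0.18 (interval -0.25 to 0.62) and ran over 0.11 to 0.25 with an array left out, lowest without treated replicate 1. Both hexokinase genes were measured above background on every array.

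PGM1, the phosphoglucomutase that links glycogen to glycolysis, had replicates close together in both groups. It stood at 8.60 and 8.50 in treated cells, against 8.23 and 8.19 in untreated cells, and averaged 8.55 ± 0.070 in treated and 8.21 ± 0.027 in untreated cells (SD, n = 2 each). The difference of PGM1 was 0.34 (interval -0.091 to 0.77, limma adjusted p = 0.948), and it held at 0.29 to 0.39 with an array left out. GPI, the isomerase that makes fructose 6-phosphate, stood at 12.31 and 12.26 in treated cells, against 12.07 and 11.84 in untreated cells. The treated arrays lay close together and the untreated arrays further apart. The difference of GPI was 0.33 (interval -0.12 to 0.78) and ran over 0.22 to 0.44 with an array left out, lowest without untreated replicate 2.

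The phosphofructokinase step, the committed step of glycolysis, showed 3 subunit genes with unlike values. PFKP, the platelet-type subunit, had the brightest probe set of the 3, at 14.18 and 13.93 in treated cells, against 13.93 and 14.06 in untreated cells. PFKM, the muscle-type subunit, stood at 11.50 and 11.29 in treated cells, against 11.34 and 11.48 in untreated cells, and PFKL, the liver-type subunit, at 9.51 and 9.20 in treated cells, against 8.83 and 9.19 in untreated cells. Of these, the groups of PFKL alone did not overlap, by a margin of 0.0090 between its lowest treated and highest untreated array. The difference was 0.35 for PFKL (interval -0.18 to 0.87), 0.058 for PFKP (interval -0.40 to 0.52) and -0.014 for PFKM (interval -0.47 to 0.44). With an array left out PFKL ran over 0.17 to 0.53, lowest without untreated replicate 1, and the signs of PFKP and PFKM turned.

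The PFKFB enzymes make and remove a fructose bisphosphate that activates phosphofructokinase, and PFKFB3 is the form that favours its synthesis most strongly. PFKFB3 stood at 7.88 and 7.34 in treated cells, against 7.21 and 7.27 in untreated cells, above each array's own background on both treated arrays and below it on both untreated arrays. Set against the mean background limit of the untreated arrays, the treated mean lay 1.10-fold above it, a bound that leaves out the spread between arrays. This bound rested on treated replicate 1: the limit was 7.48, treated replicate 2 lay below it, and without treated replicate 1 no fold above it can be given. The difference of PFKFB3 was 0.37 over 4 arrays and 0.10 without that array, and the limma adjusted p was 0.948. PFKFB2, the heart-type form, was below background on every array, at 3.98 and 4.16 in treated cells, against 4.12 and 4.10 in untreated cells.

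Aldolase splits fructose bisphosphate into triose phosphates, which TPI1 interconverts. ALDOA, the muscle and general aldolase, stood at 15.91 and 15.89 in treated cells, against 15.63 and 15.89 in untreated cells, with untreated replicate 1 below the other 3 arrays. ALDOC, the brain-type aldolase, stood at 9.71 and 9.32 in treated cells, against 9.43 and 9.42 in untreated cells, and the untreated values lay between the treated ones. TPI1, triosephosphate isomerase, stood at 13.78 and 14.00 in treated cells, against 13.71 and 13.66 in untreated cells, and the groups did not overlap. The difference of TPI1 was 0.21 (interval -0.24 to 0.65) and ran over 0.096 to 0.32 with an array left out, lowest without treated replicate 2.

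The 6 genes from GAPDH to PKM, which carry triose phosphate to pyruvate, all had positive differences, from 0.063 to 0.24, with a median of 0.16, although ENO2 lay below background. Both treated arrays lay above both untreated arrays in 3 of them, PGAM1, ENO1 and PKM, and in 20.9% of all probe sets above background. GAPDH, the NADH-forming dehydrogenase that is often used as a loading reference, had the brightest signal of the 33 genes, at 17.37 and 17.48 in treated cells, against 17.41 and 17.27 in untreated cells. Its groups overlapped, and the difference was 0.083 (interval -0.36 to 0.52). It was 0.015 without untreated replicate 2, and the sign turned after quantile normalization (-0.010). PGK1, the first ATP-forming enzyme, stood at 13.39 and 13.60 in treated cells, against 13.51 and 13.35 in untreated cells, again with overlap.

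PGAM1, phosphoglycerate mutase, was the gene with the closest replicates in this stretch. It stood at 14.64 and 14.69 in treated cells, against 14.42 and 14.43 in untreated cells, and averaged 14.66 ± 0.036 in treated and 14.43 ± 0.0083 in untreated cells (SD, n = 2 each). Its difference was 0.24 (interval -0.19 to 0.67, limma adjusted p = 0.955) and ran over 0.21 to 0.26 with an array left out. ENO1, the general enolase, stood at 16.40 and 16.51 in treated cells, against 16.31 and 16.20 in untreated cells, a difference of 0.20 (interval -0.23 to 0.64). ENO2, the neuron-specific enolase that serves as a neuroblastoma marker in serum, was below background on every array, at 6.68 and 6.59 in treated cells, against 6.67 and 6.29 in untreated cells. PKM, pyruvate kinase, stood at 15.75 and 15.84 in treated cells, against 15.51 and 15.73 in untreated cells, with a margin of 0.016 between the groups. The difference of PKM was 0.17 and ran over 0.061 to 0.28 with an array left out, lowest without untreated replicate 1. A single probe set does not tell its M1 and M2 splice forms apart.

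**Figure D2:**
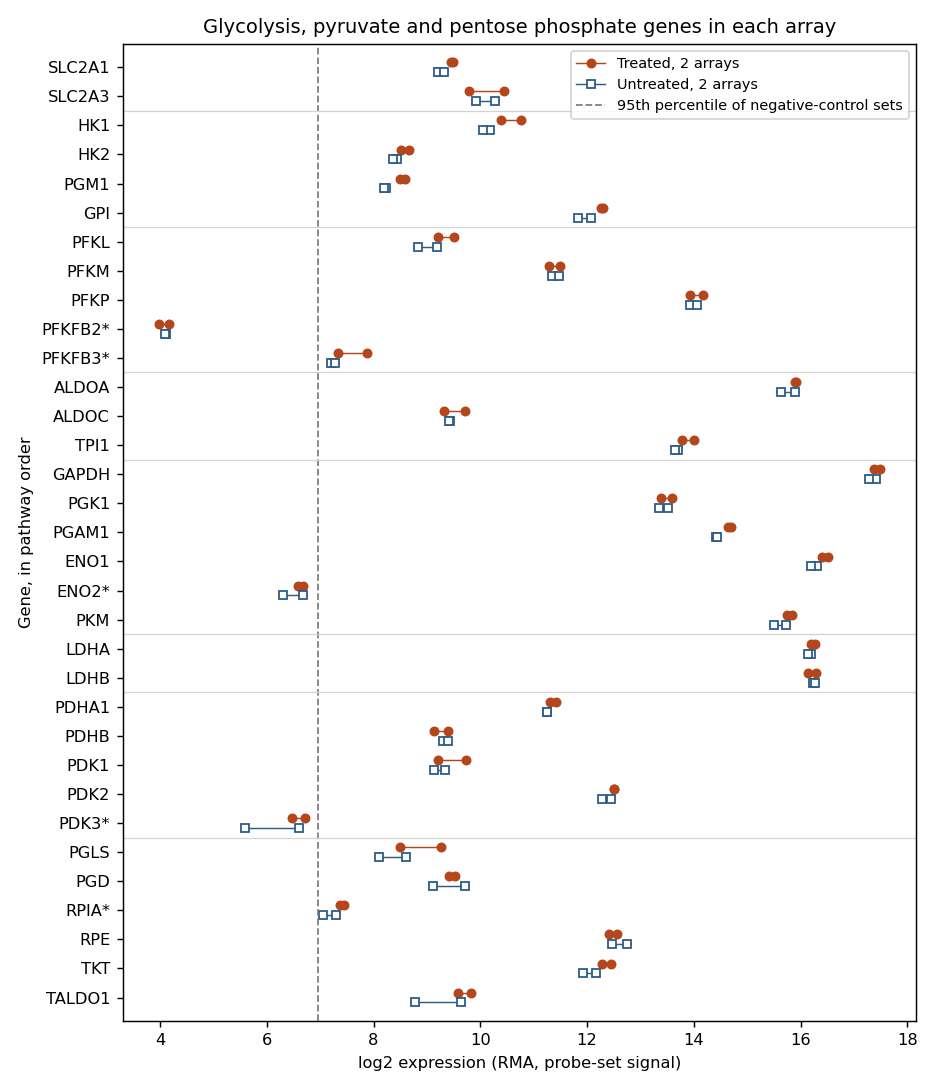
Log2 expression of the 33 genes in pathway order on each array, treated above untreated within a gene; the dashed line is the limit of 6.96 from the negative controls, and asterisks mark the 5 genes below their array's limit on both arrays of at least 1 group. PFKFB2, ENO2 and PDK3 lie below the limit, and the GAPDH points lie farthest to the right, between 17.27 and 17.48.

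The lactate step had the smallest median difference, 0.017 over 2 genes. LDHA, the form that favours lactate production, stood at 16.20 and 16.28 in treated cells, against 16.20 and 16.14 in untreated cells. LDHB, the heart-type form that favours lactate use, stood at 16.29 and 16.15 in treated cells, against 16.24 and 16.26 in untreated cells. Both pairs of groups overlapped. The difference was 0.068 for LDHA and -0.035 for LDHB, with intervals of -0.36 to 0.50 and -0.47 to 0.40. For the probe-set signal these leave room for up to 1.41-fold upward for LDHA and, downward for LDHB, to 0.722 of the untreated level. Both signals lie at percentile 99.6 of all probe sets, and how closely signal follows RNA at such levels was not tested.

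Pyruvate oxidation was represented by 2 subunits of pyruvate dehydrogenase and 3 kinases that inhibit it. PDHA1, the catalytic α subunit, stood at 11.42 and 11.30 in treated cells, against 11.26 and 11.25 in untreated cells, and the groups did not overlap. PDHB, the β subunit, stood at 9.14 and 9.39 in treated cells, against 9.31 and 9.40 in untreated cells, with treated replicate 1 the lowest of the 4. The differences were 0.11 (interval -0.32 to 0.54) for PDHA1 and -0.091 (interval -0.55 to 0.37) for PDHB, so the subunits of 1 enzyme lay on either side of 0. The difference of PDHA1 was 0.048 without treated replicate 1.

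PDK2, the most widely expressed of these kinases, stood at 12.50 and 12.51 in treated cells, against 12.44 and 12.28 in untreated cells. The groups of PDK2 did not overlap, and the difference was 0.15 (interval -0.29 to 0.58) and ran over 0.063 to 0.23 with an array left out, lowest without untreated replicate 2. PDK1, a known target of hypoxia-inducible factor, stood at 9.73 and 9.21 in treated cells, against 9.33 and 9.12 in untreated cells, and its sign turned without treated replicate 1, the highest array (-0.019). PDK3 was below background on every array, at 6.47 and 6.71 in treated cells, against 6.60 and 5.59 in untreated cells, and untreated replicate 2 was the lowest of the 4.

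The pentose phosphate genes had a median difference of 0.28 over 6 genes, and in 3 of these, PGLS, PGD and TALDO1, replicates of a group lay far apart. PGLS, the lactonase of the oxidative branch, stood at 8.49 and 9.27 in treated cells, against 8.60 and 8.11 in untreated cells. PGLS had the largest difference of the 30 genes above background, 0.53 (interval -0.20 to 1.25), but its groups overlapped and the difference was 0.14 without treated replicate 2. PGD, the NADPH-forming phosphogluconate dehydrogenase, stood at 9.41 and 9.52 in treated cells, against 9.11 and 9.71 in untreated cells, with both treated values between the untreated ones. The sign of PGD turned without untreated replicate 1.

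In the non-oxidative branch, TKT, transketolase, stood at 12.45 and 12.28 in treated cells, against 11.93 and 12.17 in untreated cells. TKT averaged 12.37 ± 0.12 in treated and 12.05 ± 0.17 in untreated cells (SD, n = 2 each), a difference of 0.32 (interval -0.15 to 0.79, limma adjusted p = 0.948), and the groups did not overlap. With an array left out TKT ran over 0.20 to 0.44, lowest without untreated replicate 1. TALDO1, transaldolase, which works with TKT to return carbon to glycolysis, stood at 9.58 and 9.83 in treated cells, against 9.65 and 8.77 in untreated cells. The difference of TALDO1, 0.50, rested on the low value of untreated replicate 2 and was 0.058 without that array. RPIA, ribose 5-phosphate isomerase, stood at 7.38 and 7.44 in treated cells, against 7.30 and 7.05 in untreated cells, above the array's own limit on both treated arrays and on neither untreated array. The limits were higher on the untreated arrays, and the 7.30 of untreated replicate 1 lay above both treated limits. No fold above the background limit could be given for RPIA. RPE, the ribulose phosphate epimerase, stood at 12.56 and 12.41 in treated cells, against 12.75 and 12.47 in untreated cells, a difference of -0.12 (interval -0.59 to 0.35) with overlapping groups.

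**Figure D3:**
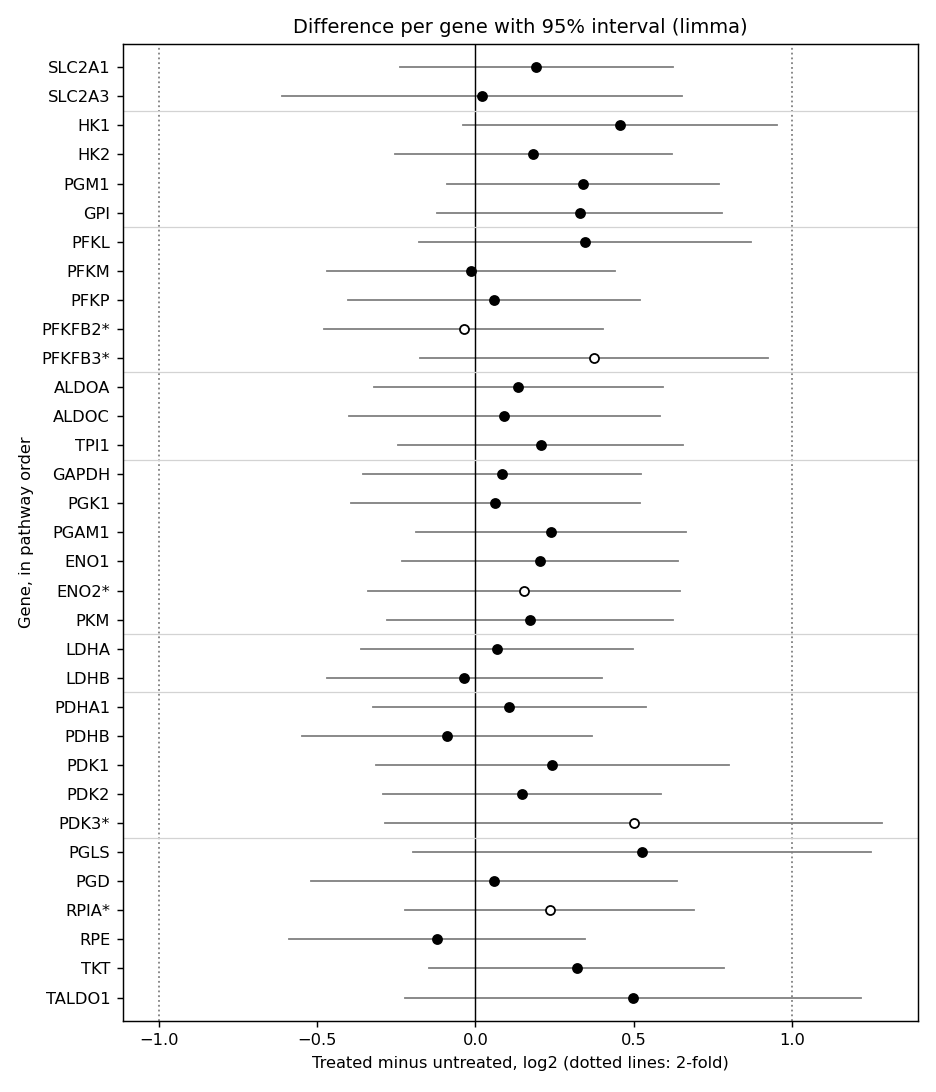
Treated minus untreated log2 difference of each of the 33 genes with its 95% limma interval. Open circles mark the 5 genes below their array's limit on both arrays of at least 1 group, and dotted lines mark 2-fold. All 33 intervals include 0, and those of PDK3, PGLS and TALDO1 reach past 2-fold.

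The precision of the arrays bounds what could have been missed in probe-set signal. The 95% interval lay within 2-fold in both directions for 30 of the 33 genes, and the exceptions were PDK3, PGLS and TALDO1. PFKFB2 and ENO2 are among those 30 but lie below background, so their intervals do not bound a change in RNA. PFKFB3 and RPIA, also among those 30, lay below the array's own limit on both untreated arrays, so their intervals do not bound one either. Of the 30 genes above background 28 had an interval within 2-fold, PFKFB3 and RPIA included, and of all probe sets above background 95.3% did. The median SD within a group was 0.10 for the treated arrays and 0.098 for the untreated arrays over the 33 genes, and the median half-width of the 95% interval was 0.46. Precision is limited by having 2 arrays a group.

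The balance between isoenzymes was followed as the log2 ratio of 2 probe sets within an array, which leaves out a shift that is equal for both. A shift that differs with the signal level would stay in the ratio. An exact permutation test of 2 arrays against 2 cannot give a two-sided p below 0.333, and no model was fitted to the ratios, so they are given as values. Of 9 ratios computed, 7 involved only genes above background, and 5 of the 7 had overlapping groups. HK2 minus HK1 was -1.72 and -2.24 in treated cells, against -1.73 and -1.69 in untreated cells, and treated replicate 2 alone stood apart. LDHB minus LDHA was 0.090 and -0.13 in treated cells, against 0.039 and 0.13 in untreated cells, with treated replicate 1 inside the untreated range. The ratios of SLC2A3 to SLC2A1, ALDOC to ALDOA and PDK2 to PDK1 also overlapped.

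The groups did not overlap in 2 of the 7 ratios (28.6%), both of which contain PFKP. Among single probe sets above background 32.3% had groups that did not overlap in either direction, so this share is near that background and is not read as a shift in these pairs. PFKP minus PFKL was 4.66 and 4.73 in treated cells, against 5.10 and 4.87 in untreated cells, lower on both treated arrays. PFKP minus PFKM was 2.68 and 2.64 in treated cells, against 2.59 and 2.58 in untreated cells, higher on both treated arrays, though by only 0.072 on average.

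**Figure D4:**
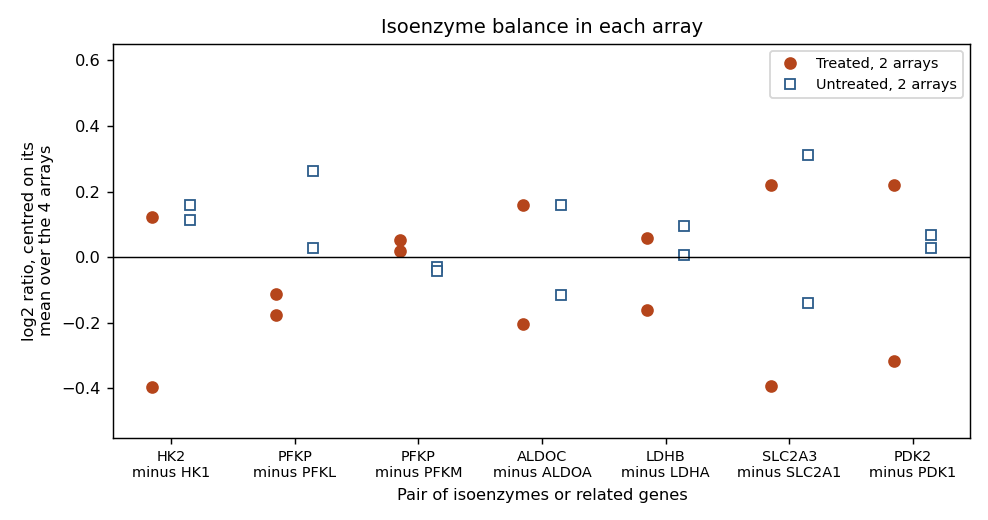
Log2 ratio of 2 probe sets within each array, centred on its mean over the 4 arrays, for the 7 pairs of genes above background; treated arrays are circles and untreated arrays squares. The groups separate for PFKP minus PFKL and PFKP minus PFKM and overlap in the other pairs.

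Several of the brightest genes have processed copies in the genome, whose RNA or sequence the probes may share. RefSeq (GRCh38.p14) lists 65 pseudogenes named after GAPDH, 13 after PGAM1, 6 each after LDHA and RPE, and 5 after PKM. In all, 17 of the 33 genes have at least 1. The values of these genes are uncertain to that extent, and the sources used here do not say how the probes treat such copies.

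Promoter sequence was examined because glycolytic genes are known targets of hypoxia-inducible factor and of MYC, which bind ACGTG or GCGTG and CACGTG. RefSeq windows from 250 bases before to 50 bases after a transcript start were found for 31 of the 33 genes, 57 windows in all, since 11 genes have several starts. ACGTG or GCGTG, read on either strand, occurred in a window of 26 of the 31 genes (83.9%), against 61.9% of the 15843 protein-coding genes in the table. CACGTG, which contains ACGTG on both strands, occurred in 8 of the 31 (25.8%), against 10.9%, and GGGCGG, the GC box, in 30 of the 31 (96.8%), against 64.3%. The 31 genes have more windows each than protein-coding genes in general, so these shares by gene are not on an equal footing. Windows of a gene can overlap and each is counted, and HK1 and PFKM have 7 each, so shares by window are not on an equal footing either. By window, ACGTG or GCGTG occurred in 59.6% of the 57, against 54.7% of 22199 windows of protein-coding genes. GCGTG counted by itself was in 40.4%, against 43.0%, ACGTG counted by itself in 38.6%, against 23.0%, CACGTG in 14.0%, against 8.34%, and GGGCGG in 71.9%, against 56.3%. HK2 had the most matches to ACGTG or GCGTG, 9 over its 2 windows with each CACGTG counted as 2 matches, and a difference of 0.18. The 5 genes with a window and no match were PGAM1, PGLS, RPE, TALDO1 and TKT. Their differences ran from -0.12 for RPE, the only negative one, to 0.53 for PGLS. The median difference was 0.32 for these 5 genes and 0.16 for the 26 genes with a match, and this contrast was not tested. All of the 5 but PGAM1 are pentose phosphate genes, so lack of a match and pathway step cannot be told apart. The 26 include ENO2 and PDK3, which lie below background.

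The following 3 windows, on GRCh38.p14 and in the direction of transcription, show what a window with many matches (LDHA, chr11:18394313-18394612, plus strand), with few (ENO1, chr1:8878637-8878936, minus strand) and with none (TKT, chr3:53255973-53256272, minus strand) looks like. They were chosen after the values were seen and stand for no relation between matches and expression. Capitals mark ACGTG or GCGTG on either strand, and a match is a description of the letters and not a binding site.
LDHA: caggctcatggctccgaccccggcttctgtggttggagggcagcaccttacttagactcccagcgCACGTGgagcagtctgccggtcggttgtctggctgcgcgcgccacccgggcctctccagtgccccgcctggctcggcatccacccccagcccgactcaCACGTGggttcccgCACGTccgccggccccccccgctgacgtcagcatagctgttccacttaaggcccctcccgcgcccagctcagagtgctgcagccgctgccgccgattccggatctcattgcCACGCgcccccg
ENO1: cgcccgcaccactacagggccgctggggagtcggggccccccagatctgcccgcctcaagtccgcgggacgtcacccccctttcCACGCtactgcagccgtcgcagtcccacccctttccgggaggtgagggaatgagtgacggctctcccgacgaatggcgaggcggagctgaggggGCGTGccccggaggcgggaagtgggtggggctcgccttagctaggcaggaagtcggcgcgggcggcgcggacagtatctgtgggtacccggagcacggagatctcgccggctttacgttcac
TKT: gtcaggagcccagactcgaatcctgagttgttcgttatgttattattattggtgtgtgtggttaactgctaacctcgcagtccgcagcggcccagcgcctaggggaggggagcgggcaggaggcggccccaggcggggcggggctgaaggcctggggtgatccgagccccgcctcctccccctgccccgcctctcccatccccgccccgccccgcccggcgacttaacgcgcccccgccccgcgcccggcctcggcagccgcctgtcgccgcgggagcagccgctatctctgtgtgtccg
The LDHA window holds 6 matches, 4 of them in 2 CACGTG runs at -185 and -87 from the start, counted with the start as 1. The ENO1 window holds 2, at -166 and -72, and the TKT window holds 0 but 5 GGGCGG boxes.

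Other genes of the same pathways were described in the same way. Of 47 further enzymes, transporters and regulators listed, 44 were measured and 18 were above background. With limma 0 of the 44 passed after adjustment and 1 had an unadjusted p under 0.05, where 0% and 5.08% of all probe sets did so. Higher values in treated cells were found in 8 of the 18 above background (44.4%), against 58.6% of all probe sets above background. The median difference of the 18 was -0.0046. Groups lay entirely above in 1 and entirely below in 3, against 20.9% and 11.5% of all probe sets above background. This list was likewise written with earlier results known, and the contrast with the 33 genes was not tested.

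By the smallest p, the 6 named from those 18 were TKTL1, SLC16A7, PDP1, ADPGK, PGM2 and PDHX. TKTL1, a transketolase-like protein, stood at 7.63 and 7.46 in treated cells, against 7.73 and 7.89 in untreated cells, a difference of -0.27 (interval -0.72 to 0.18) in the opposite direction to TKT. SLC16A7, the high-affinity monocarboxylate carrier MCT2, had a difference of 0.30 (interval -0.36 to 0.96) with overlapping groups. PDP1, the phosphatase that opposes the PDK kinases, stood at 11.32 and 11.23 in treated cells, against 11.45 and 11.36 in untreated cells, a difference of -0.13 (interval -0.57 to 0.30). ADPGK, an ADP-dependent glucokinase, had -0.14, PGM2, a phosphopentomutase, -0.10, and PDHX, the E3-binding protein of pyruvate dehydrogenase, 0.085. All 6 intervals included 0.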

How the data were processed

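Total RNA of 4 SK-N-AS samples was measured on Affymetrix arrays. The log2 values deposited by the authors give 1 number per probe set. They were made with RMA in Transcriptome Analysis Console 4.0.1.36, tools taken from the submitters' processing notes, and that they are log2 was inferred from their range. RMA normalizes quantiles between arrays, so a change common to most genes would be removed. The sources used here do not give the genome build of the probe sets.

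Of 24351 probe sets, 2903 controls were left out and 21448 tested with no filter on dim signals. Of these, 17709 had 1 symbol in the platform annotation, 0 had several and 3739 are unnamed here. Where a gene has several probe sets the brightest is used, which applied to 0 of the members. Treated and untreated arrays were compared by limma 3.58.1 (lmFit, eBayes; R 4.3.3), two-sided, with group as the only term and Benjamini-Hochberg adjustment over all 21448. Degrees of freedom were 2 residual and 4.90 prior, and the fit was tested on simulated data. Background was taken as percentile 95 of the 612 negative-control sets. The bound for a gene below it in untreated cells sets the treated mean against the mean, over the untreated arrays, of each array's own limit. Promoter windows came from RefSeq, GRCh38.p14, matched by gene identifier.

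The members and all lists were chosen with earlier results of these data known. All members are named, and of the other pathway genes the 6 with the smallest p among those above background. Alternatives were 3 normalizations, 2 filters on dim probe sets, 2 forms of variance moderation, a block for the replicate number, leaving out each array, averaging a gene's probe sets, and keeping the control sets. The ratios of PFKFB3 to PFKFB4 and of SLC16A3 to SLC16A1 were planned and not run, since a gene of each pair was not analysed here.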

Additional observations from a re-analysis of the deposited data

How the results depend on the processing

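Under all 14 alternatives, 0 probe sets and 0 of the 33 genes passed the limma adjusted p of 0.05, and the smallest adjusted p over these alternatives was 0.331. At an unadjusted p under 0.05 the count of the 33 was 0 in the main comparison and in 7 of the alternatives. It was 1 under each filter on dim probe sets (HK1), 2 with eBayes trend and 2 with trend and robust (HK1 and GPI). It was 2 without untreated replicate 1 (PDK3 and TALDO1), 1 without treated replicate 1 (PGLS) and 1 without treated replicate 2 (PFKFB3). The number of the 33 genes higher in treated cells ran over 25 to 29 with an array left out, against 28 in the main comparison, and was 27 after quantile normalization and 28 after cyclic loess. The median difference ran over 0.12 to 0.19 with an array left out, the lowest without untreated replicate 2, and was 0.14 after quantile normalization and 0.15 after cyclic loess, which also took the median of probe sets above background to -0.00079 and 0.00048. The 15 genes with groups that did not overlap became 13 under each of these normalizations, with 1 gene entirely lower after quantile normalization. The replicate number as a block left the median at 0.17 and called 0 genes. The replicate numbers share no stated origin, and the deviations of same-numbered arrays correlated at -0.00085 over all probe sets.

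The sign held under all alternatives run for 19 genes and turned for 14. SLC2A3 was -0.014 after quantile normalization and -0.024 after cyclic loess, GAPDH -0.010 after quantile normalization, and PFKFB2, below background, 0.054 and 0.034. With an array left out the ranges were -0.30 to 0.35 for SLC2A3, -0.12 to 0.094 for PFKM, -0.066 to 0.18 for PFKP, -0.13 to 0.054 for PFKFB2, -0.10 to 0.28 for ALDOC, -0.040 to 0.17 for PGK1 and -0.033 to 0.34 for ENO2. They were -0.11 to 0.035 for LDHB, -0.22 to 0.033 for PDHB, -0.019 to 0.51 for PDK1, -0.0031 to 1.00 for PDK3, -0.24 to 0.36 for PGD and -0.26 to 0.015 for RPE. The causes were not tested. PFKFB2, ENO2 and PDK3 lie below background, so their signs are not read as changes.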

Other observations

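Among the other pathway genes below background on every array, PGAM2, the muscle form of phosphoglycerate mutase, was the 1 gene with an unadjusted p under 0.05 in limma (adjusted p = 0.948). Its log2 expression was 5.39 and 5.80 in treated cells, against 6.26 and 6.63 in untreated cells, and both treated arrays were lower. LDHAL6A, a lactate dehydrogenase-like gene, stood at 5.47 and 5.14 in treated cells, against 5.54 and 6.35 in untreated cells, also lower on both treated arrays. SLC2A6, PFKFB1, FBP1 and TKTL2, likewise below background on every array, were higher on both treated arrays. Of the 44 other pathway genes 5 lay entirely above and 9 entirely below, against 16.4% and 16.8% of all probe sets. PGAM2 and LDHAL6A were picked out with their values known, and as both lie below background no fold is given.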
